A study of Bos taurus with 22 samples.

Results

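Transcripts of 29 zinc finger protein genes were examined in circulating white blood cells of 22 heifers, out of 27607 genes in the count table. The members are the genes whose symbol starts with ZNF (21 genes), ZFP (2 genes), ZSCAN (1 gene) or ZBTB (5 genes) in the rows available here of the study's table of its fertility test. Those 1401 rows, of which 1229 carry a symbol, are the ones with the smallest p for Fertile against Sub-Fertile heifers. The values that chose the members are therefore those of the fertility comparison, which is given as a description. Any p quoted for it says only how the members were chosen or named. In the fit used here, the unadjusted p of the members for fertility ran from 0.0151 (ZNF606) to 0.142 (ZNF175 and ZNF512), and the highest over all available rows was 0.203. Zinc finger genes with a larger p had no name in the sources used here and were not analysed.

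The heifers were 5 Angus Fertile, 7 Angus Sub-Fertile, 5 Holstein Fertile and 5 Holstein Sub-Fertile animals, purebred, with 1 library from each. All had their estrus synchronized with a progesterone insert and were bled when first inseminated, at an average age of 14 months in Angus, a beef breed (insert for 7 days), and 12 months in Holstein, a dairy breed (insert for 5 days). A Fertile heifer conceived at that service and calved. A Sub-Fertile Angus heifer was still open after 2 services and a bull, whereas a Sub-Fertile Holstein heifer needed at least 4 inseminations. Breed, age, synchronization, management and the criterion of sub-fertility cannot be told apart.

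Zinc finger proteins hold small folds, each kept in shape by a zinc ion, and most use a row of C2H2 fingers to read DNA. KRAB zinc finger proteins recruit the corepressor TRIM28, which brings the histone methyltransferase SETDB1 and silences transposable elements and other targets, and their genes lie in clusters that grew by duplication. ZBTB proteins join the fingers to a BTB domain that binds corepressors, and several direct the development of lymphocytes and other blood cells.

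By the domains known for their human counterparts, 10 members are KRAB zinc finger genes (ZNF7, ZFP1, ZNF529, ZNF45, ZNF175, ZNF350, ZNF548, ZNF606, ZNF445 and ZNF674), and 5 are BTB genes (ZBTB7A, ZBTB10, ZBTB18, ZBTB24 and ZBTB40). ZSCAN26 carries a SCAN domain, through which such proteins pair with each other. ZFP36L1 has fingers of the CCCH kind and binds AU-rich elements of mRNAs, which it marks for decay. The other 12 have C2H2 fingers of other kinds (ZNF644, ZNF326, ZNF292, ZNF106, ZNF512, ZNF831, ZNF572, ZNF280B, ZNF575, ZNF784, ZNF660 and ZNF318). The members share a kind of domain and not a single function.

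The members lay on 14 chromosomes of ARS-UCD1.2, the cattle assembly to which the authors aligned the reads. Chromosome 18 held 9 of them, or 31.0%, against 6.28% of the available rows. The same chromosome holds 102 of the 390 protein-coding genes that RefSeq (ARS-UCD2.0) lists under these name prefixes, or 26.2%. Of the 9 on chromosome 18, 7 are KRAB genes. Members next to each other with starts at most 1000000 bases apart formed 5 pairs.

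On chromosome 18, ZNF575 (chr18:51736504-51738764) and ZNF45 (chr18:52099337-52107295) start 362833 bases apart. ZNF175 (chr18:57531832-57538880) and ZNF350 (chr18:57875071-57894839) start 343239 bases apart, and ZNF548 (chr18:64609623-64619591) and ZNF606 (chr18:65466424-65468871) 856801 bases apart. RefSeq places 4 other zinc finger genes with these prefixes between ZNF575 and ZNF45, and 3 between ZNF175 and ZNF350. ZNF445 (chr22:16329359-16337918), known for guarding genomic imprints, and ZNF660 (chr22:16416500-16417480) start 87141 bases apart, with 1 such gene between them. ZNF644 (chr3:52252198-52348486), a partner of the histone methyltransferases G9a and GLP, and ZNF326 (chr3:53224391-53259805), which links splicing to RNA polymerase II, start 972193 bases apart with no such gene between them. The coordinates span the whole annotated gene, and the deposited counts are totals per gene, with no exon or isoform kept apart.

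Values are in CPM, the share of a library's counts over the tested genes that falls to a gene, times 1000000. Total counts ran from 12182400 to 49228035 (median 23158374), and were higher in Angus Fertile heifers (median 43397234) than in Holstein Fertile (17180109), Holstein Sub-Fertile (17198877) or Angus Sub-Fertile heifers (28354518). The filter, a CPM above 1 in at least 5 heifers, kept 13535 genes and all 29 members. Some libraries resembled each other closely. In 8 close pairs (heifers 1 with 11, 5 with 6, 7 with 16, 8 with 12, 10 with 18, 13 with 22, 14 with 20 and 15 with 19), each heifer was nearest to the other, with a biological coefficient of variation of 0.0378 to 0.0829 over well expressed genes. The lowest value of any other pairing was 0.0981, and the median of all pairings 0.171. Of the 8 close pairs, 6 are of unlike fertility and 4 of unlike breed. The labels give no reason for this closeness, so values from a fit with close pairs as blocks are given as well. In that fit heifers 2, 3, 4, 9, 17 and 21, in no close pair, are blocks of their own. They add nothing to its log2 fold changes, which rest on differences within the 8 close pairs. These pairs were picked as most alike in the same data, so small differences within them are built in.

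The members differed widely in abundance. Per kilobase of transcript, ZFP36L1 was the most abundant at 108 CPM per kilobase (mean of 22 heifers), followed by ZBTB7A at 41.5, ZBTB18 at 37.0, ZNF106 at 33.7 and ZNF318 at 26.6. ZBTB7A is a repressor that acts in B cell, T cell and red cell development, ZBTB18 is a repressor known from brain and lymphocytes, and ZNF318 is needed in B cells for the expression of IgD. KRAB genes lay lower, from 8.75 CPM per kilobase (ZNF7) to 0.964 (ZNF548), the lowest of all members. The other members ranged from 24.1 (ZNF512) to 2.12 CPM per kilobase (ZNF660).

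For ZFP36L1, the CPM was 387, 351, 451, 387 and 392 in Angus Fertile heifers 18 to 22, and 341 to 427 (median 391) in Angus Sub-Fertile heifers. Holstein Fertile heifers 6 to 10 gave 344, 356, 371, 290 and 414, and Holstein Sub-Fertile heifers 1 to 5 gave 442, 550, 492, 398 and 356. The highest values were those of Holstein Sub-Fertile heifers 2 and 3, and the groups overlapped. ZNF660 had the lowest CPM before division by length (2.08), from counts of 16 to 125 per heifer, so its counting error was the largest of the members. In the raw counts of every heifer, each member was detected.

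Within the groups, the members differed in spread. The SD of log2 (CPM + 1) about the group means ran from 0.10 (ZBTB40) to 0.35 (ZNF318). ZNF318 was also among the 5 most abundant members per kilobase. ZNF548 (0.34), ZSCAN26 (0.34), ZNF175 (0.31) and ZBTB10 (0.30) followed. ZNF7, ZNF512 and ZBTB24, the last a gene mutated in an immunodeficiency with centromere instability, each had an SD of 0.11. The 1 added to the CPM narrows this spread in members of low CPM, such as ZNF548 (mean 3.68). As a percentage of the mean CPM, the SD of ZNF548 was 40.8 in Angus Fertile, 20.6 in Angus Sub-Fertile and 36.8 in Holstein Fertile heifers. For ZNF318 it was 26.2, 11.6 and 17.8. In Holstein Sub-Fertile heifers it was 29.99 for ZNF548 and 36.9 for ZNF318. No member is therefore read as the most variable.

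The question the study put to these heifers was which transcripts differ with fertility once breed is accounted for. With breed as a term, 28 of 29 members were lower in Fertile than in Sub-Fertile heifers, against 50.8% of all 13535 tested genes and 43.5% of the 1401 available rows. The median log2 fold change of the members was -0.16, which is 10.2% lower, against -0.0017 over all tested genes. The lowest were ZNF660 (-0.31 ± 0.16, SE), ZSCAN26 (-0.30 ± 0.15), ZNF548 (-0.29 ± 0.18), ZNF606 (-0.27 ± 0.10) and ZNF318 (-0.26 ± 0.15), and ZNF784 alone was above 0 (0.15 ± 0.09). The members described heifer by heifer below include the 4 with an unadjusted p under 0.05, ZNF606, ZNF280B, ZBTB7A and ZBTB18, all lower in Fertile heifers (2.82% of all tested genes in either direction, 1.04% lower in Fertile). Over all 13535 genes, 0 passed for fertility by the edgeR quasi-likelihood test with Benjamini-Hochberg adjustment (382 at an unadjusted p under 0.05). Since the rule used this contrast, the number of members with a small p was set by it and nothing is read from these shares.

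By class, the 10 KRAB genes were all lower in Fertile heifers, with a median log2 fold change of -0.20. The 5 BTB genes were also all lower, with a median of -0.16 and a range from -0.19 (ZBTB10) to -0.08 (ZBTB40). Of the 12 other C2H2 genes, 11 were lower, with a median of -0.15. ZFP36L1 had a log2 fold change of -0.15 ± 0.08 (SE). Since the rule chose on p for this contrast, a gene with a larger SE needed a larger fold change to be a member. No difference between classes is read from these medians. With close pairs as blocks, 4 of the 10 KRAB genes (median 0.013), 2 of the 5 BTB genes (0.0055) and 5 of the 12 other C2H2 genes (0.014) were lower in Fertile heifers.

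The KRAB gene ZNF606 had a CPM of 9.44, 11.3, 10.4, 8.96 and 11.2 in Angus Fertile heifers 18 to 22, and of 10.3 to 14.99 (median 12.4) in Angus Sub-Fertile heifers. It measured 13.3, 14.5, 12.8, 8.72 and 9.77 in Holstein Fertile heifers 6 to 10, and 11.6, 17.7, 17.5, 12.2 and 11.7 in Holstein Sub-Fertile heifers 1 to 5. Heifers 2 and 3 were the highest of all and heifers 9 and 21 the lowest, and the Fertile and Sub-Fertile ranges overlapped in both breeds. ZNF606 was 17% lower in Fertile heifers (log2 fold change -0.27), with similar values in Angus alone (-0.26 ± 0.11, SE) and Holstein alone (-0.30 ± 0.18). It was 0.03 ± 0.07 with close pairs as blocks.

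ZBTB18 measured 98.2, 145, 142, 107 and 129 CPM in Angus Fertile heifers 18 to 22, and 126 to 161 (median 144) in Angus Sub-Fertile heifers. Among Holstein heifers the CPM was 140, 162, 163, 151 and 115 in Fertile heifers 6 to 10 and 137, 170, 172, 154 and 149 in Sub-Fertile heifers 1 to 5. The low values were those of heifers 18, 21 and 10, of which 18 and 10 form a close pair. The log2 fold change of ZBTB18 was -0.16 ± 0.07 (SE), and -0.0066 ± 0.0415 with close pairs as blocks. ZNF280B measured 12.97, 17.1, 13.6, 12.7 and 15.6 CPM in Angus Fertile heifers 18 to 22 and 12.6 to 19.4 (median 17.04) in Angus Sub-Fertile heifers, against 15.3 to 18.1 in Holstein Fertile and 14.0 to 22.3 in Holstein Sub-Fertile heifers. Its log2 fold change was -0.19 ± 0.08, or -0.04 ± 0.07 with close pairs as blocks, and its Fertile and Sub-Fertile ranges overlapped in both breeds.

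ZNF784, the member with the opposite sign, measured 12.0, 14.5, 14.0, 8.38 and 10.3 CPM in Angus Fertile heifers 18 to 22 and 8.52 to 13.4 (median 11.2) in Angus Sub-Fertile heifers. In Holstein Fertile heifers 6 to 10 it measured 10.4, 9.37, 11.4, 10.5 and 12.3, and in Holstein Sub-Fertile heifers 1 to 5 it measured 9.04, 8.44, 9.04, 10.2 and 9.70. The Holstein Sub-Fertile heifers were the lowest group, and heifer 21 the lowest animal. The log2 fold change was 0.08 ± 0.15 (SE) in Angus alone, 0.24 ± 0.11 in Holstein alone, and 0.07 ± 0.06 with close pairs as blocks.

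**Figure D1:**
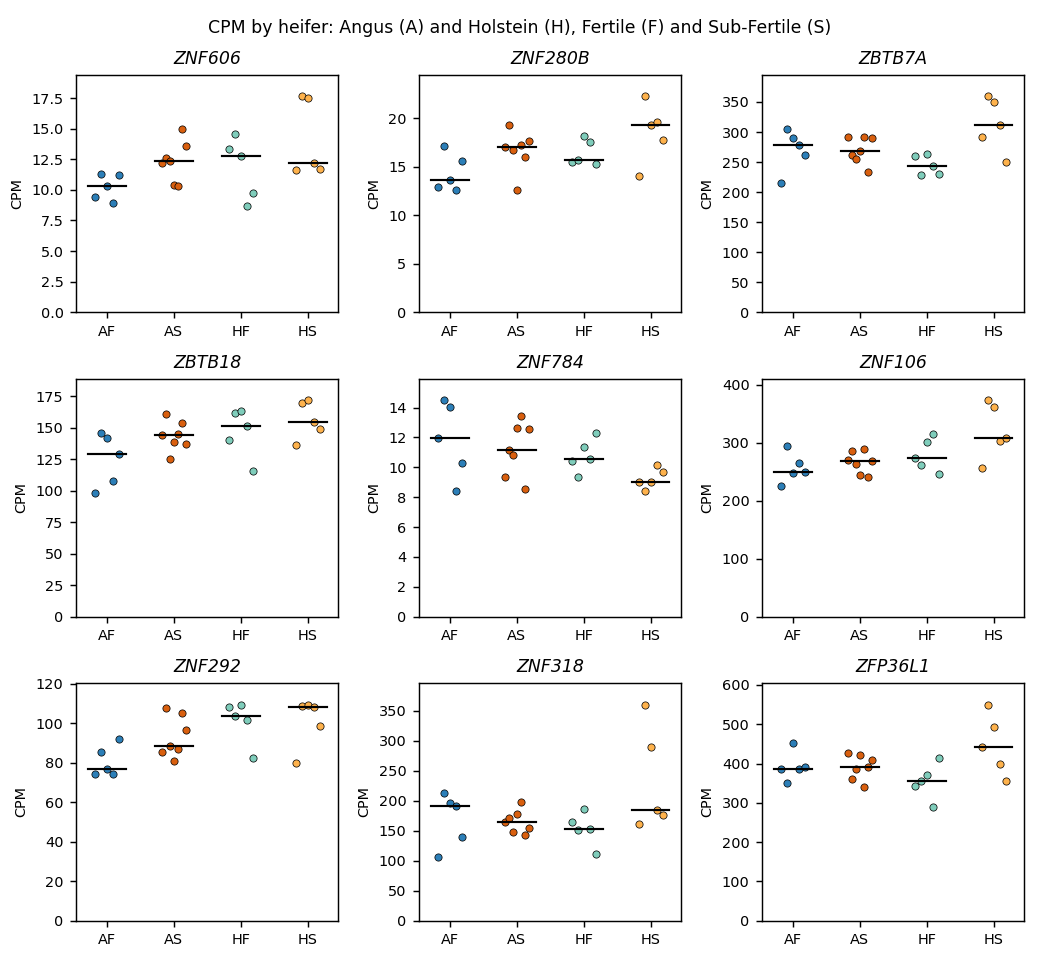
CPM of 9 members (vertical axes, each from 0) in Angus Fertile (AF), Angus Sub-Fertile (AS), Holstein Fertile (HF) and Holstein Sub-Fertile (HS) heifers, with 1 point for each heifer in the order of its number and a bar at the group median. The groups overlap in every panel, and the 2 highest points of ZNF606, ZBTB7A, ZNF106, ZNF318 and ZFP36L1 in the HS column are heifers 2 and 3.

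The Fertile and Sub-Fertile heifers overlapped in all 29 members in Angus and in all 29 in Holstein. This was not counted over all tested genes, so nothing is read from it. In Angus alone 26 of 29 members were lower in Fertile heifers (median log2 fold change -0.13), the exceptions being ZNF784, ZNF318 and ZFP36L1. In Holstein alone 28 of 29 were lower (median -0.18), the exception being ZNF784. The plot of members by heifer shows which animals lay far from their breed mean.

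**Figure D2:**
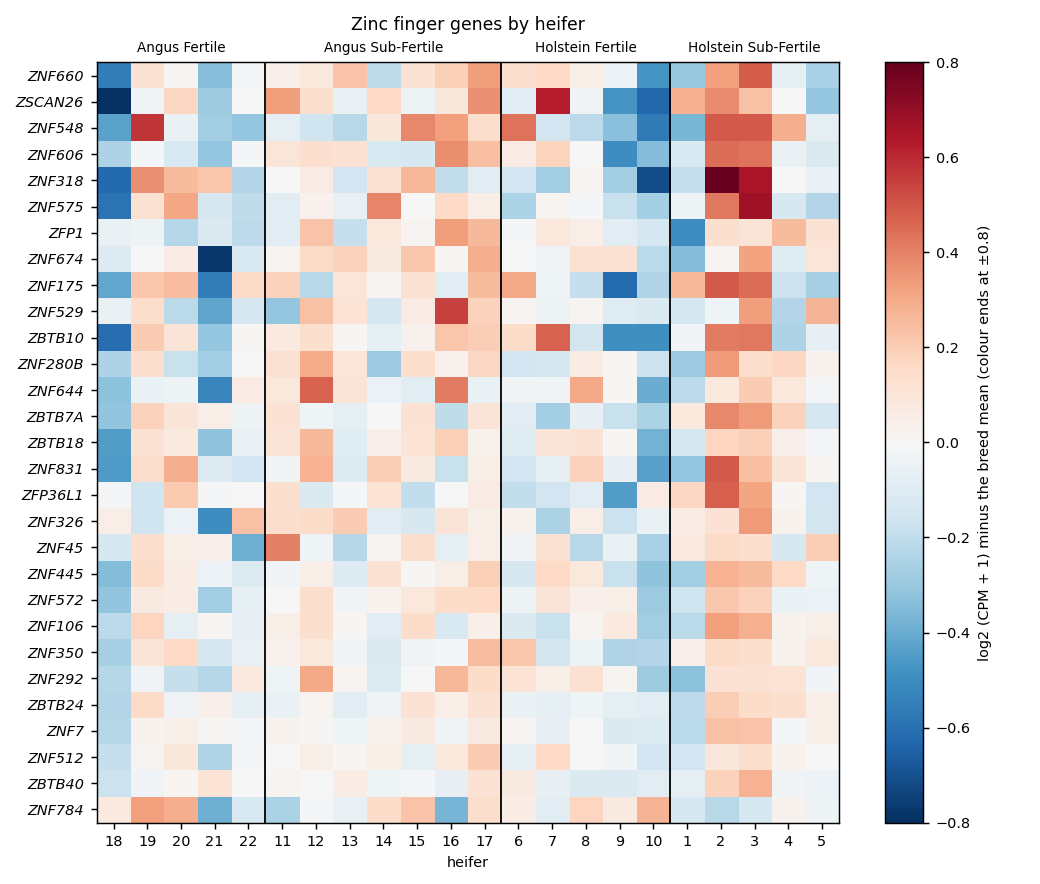
Deviation of log2 (CPM + 1) from the breed mean for the 29 members (rows, ordered by log2 fold change for fertility) in the 22 heifers (columns, by group). Red is above and blue below the breed mean. Columns 18 and 10 are blue and columns 2 and 3 red in nearly all rows, and ZNF784 in the last row departs from the other members in these columns.

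Counted by heifer, 2 to 20 of the 29 members (median 8) were above their breed mean in Angus Fertile heifers, and 13 to 27 (median 19) in Angus Sub-Fertile heifers. In Holstein Fertile heifers the count was 2 to 16 (median 12), and in Holstein Sub-Fertile heifers 7 to 28 (median 18). The extremes were Fertile heifers 10 and 18 with 2 members each, and Sub-Fertile heifers 2, 3 and 17 with 27, 28 and 27. Total counts were 42371919, 35869046 and 38936648 in heifers 2, 3 and 17, against 38118108 in heifer 10 and 20996745 in heifer 18. The part of depth in these numbers by heifer was not tested. Within both breeds the groups overlapped: Holstein Sub-Fertile heifer 1 had 7 members above the mean, and Angus Fertile heifers 19 and 20 had 20 and 19. Summed over the members, the CPM was 1619 to 2043 in Angus Fertile, 1891 to 2044 in Angus Sub-Fertile, 1753 to 2085 in Holstein Fertile and 1963 to 2686 in Holstein Sub-Fertile heifers.

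**Figure D3:**
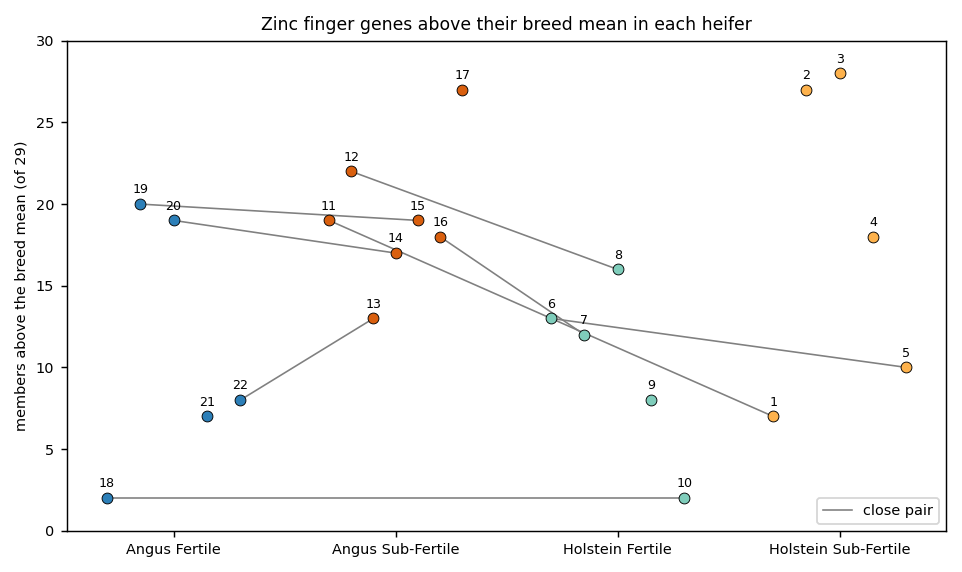
Number of members above their breed mean (vertical axis, of 29) in each heifer, by group. Numbers name the heifers and grey lines join the 8 close pairs. Heifers 10 and 18, a close pair of Fertile heifers from different breeds, both have 2, and heifers 2, 3 and 17, which are in no close pair, have 27, 28 and 27.

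Between the heifers of a close pair the direction varied. In the 6 close pairs of unlike fertility, the number of members lower in the Fertile heifer was 16 (heifer 6 against 5), 15 (7 against 16), 13 (8 against 12), 19 (22 against 13), 9 (20 against 14) and 8 (19 against 15) of 29. Over all tested genes, 45.4%, 45.5%, 52.9%, 43.1%, 30.7% and 39.7% were lower in the Fertile heifer, in the same order. The median member differed by -0.04 to 0.04 on the log2 scale in these pairs. With close pairs as blocks, 12 of 29 members were lower in Fertile heifers and 17 higher, with a median log2 fold change of 0.01. Heifers 2, 3 and 17, in no close pair, add nothing to these values. In that fit 36.2% of all tested genes were lower, with a median of 0.02. ZFP1, a KRAB gene, was lower in the Fertile heifer in 6 of 6 pairs, by 0.03 to 0.31 on the log2 scale, and ZNF280B, ZNF529 and ZNF575 in 5 of 6. These 4 were singled out after their values were seen.

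Without heifers 10 and 18, 28 of 29 members were lower in Fertile heifers, with a median log2 fold change of -0.12, against 53.1% of all tested genes. Leaving out each heifer in turn gave 28 of 29 lower every time, with medians from -0.18 to -0.14. The members were chosen on this contrast in the same libraries, so an unchanged count adds no support for the direction.

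In contrast to fertility, the breed comparison was not used to choose the members. Of the 29 members, 25 were higher in Holstein than in Angus heifers, against 46.5% of all tested genes, with a median log2 fold change of 0.09 (all tested genes -0.01). At an unadjusted p under 0.05 there were 8 members, or 27.6%, against 11.4% of all tested genes. Of these, 7 were higher in Holstein, against 4.89% of all tested genes: ZNF106, ZNF292, ZBTB18, ZNF644, ZNF45, ZNF529 and ZNF280B. ZNF784 was lower in Holstein, against 6.47% of all tested genes. By the edgeR quasi-likelihood test with Benjamini-Hochberg adjustment over 13535 genes, 0 members passed (lowest adjusted p 0.395), and 0 genes passed in all (1538 at an unadjusted p under 0.05). DESeq2 gave 9 members at an unadjusted p under 0.05, against 12.9% of all tested genes, and 0 members at an adjusted p under 0.05 (10 genes in all).

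ZNF106, an RNA-binding protein, measured 226, 295, 248, 266 and 250 CPM in Angus Fertile heifers 18 to 22 and 240 to 289 (median 268) in Angus Sub-Fertile heifers. Holstein Fertile heifers 6 to 10 gave 275, 262, 301, 315 and 246, and Holstein Sub-Fertile heifers 1 to 5 gave 256, 373, 362, 304 and 308. The breeds overlapped within each fertility group, with Holstein heifers 1, 6, 7 and 10 inside the Angus range. The log2 fold change of ZNF106 for breed was 0.20 ± 0.06 (SE), or 15% higher in Holstein, with an unadjusted p of 0.0049 and an adjusted p of 0.395 by the edgeR quasi-likelihood test.

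ZNF292, a large DNA-binding protein first described as a regulator of growth hormone, measured 74.4, 85.7, 76.9, 74.5 and 92.1 CPM in Angus Fertile heifers 18 to 22 and 81.0 to 108 (median 88.6) in Angus Sub-Fertile heifers. It measured 108, 104, 109, 102 and 82.2 in Holstein Fertile heifers 6 to 10, and 79.7, 109, 109, 108 and 98.7 in Holstein Sub-Fertile heifers 1 to 5. All Holstein heifers except 1 and 10 lay above all Angus Fertile heifers. Its log2 fold change for breed was 0.21 ± 0.07 (SE), or 15.9% higher in Holstein, with an unadjusted p of 0.0063 and an adjusted p of 0.395 by edgeR.

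For ZBTB18 the log2 fold change for breed was 0.17 ± 0.07 (SE; adjusted p = 0.402 by edgeR), from the values given above for each heifer. ZNF644 measured 91.9, 111, 112, 79.7 and 121 CPM in Angus Fertile heifers 18 to 22, and 109 to 161 (median 123) in Angus Sub-Fertile heifers. Among Holstein heifers the CPM was 131, 131, 165, 134 and 101 in Fertile heifers 6 to 10 and 116, 142, 154, 142 and 132 in Sub-Fertile heifers 1 to 5. The Angus Fertile heifers were the lowest group, and the ranges of the breeds overlapped. The log2 fold change of ZNF644 for breed was 0.22 ± 0.09 (adjusted p = 0.402 by edgeR). The other members at an unadjusted p under 0.05 were ZNF529 (0.26 ± 0.11), ZNF45 (0.19 ± 0.08), ZNF280B (0.17 ± 0.08) and ZNF784 (-0.22 ± 0.09).

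By class, 10 of the 12 other C2H2 members were higher in Holstein (median log2 fold change 0.16), 8 of the 10 KRAB members (0.08) and 5 of the 5 BTB members (0.05). Of all tested genes 46.5% were higher in Holstein. With close pairs as blocks the numbers were 7 of 12 (median 0.012), 2 of 10 (-0.027) and 2 of 5 (-0.0019), against 49.4% of all tested genes. The Angus and Holstein heifers overlapped in all 29 members, among Fertile heifers and likewise among Sub-Fertile heifers. Overlap of the breeds was not counted over all tested genes, so nothing is read from it. For 26 of 29 members the signs for breed and fertility were opposite, against 62.9% of all tested genes. The rule selected on fertility, and of all tested genes lower in Fertile heifers 59.3% were higher in Holstein.

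The breed comparison was repeated with further terms and without single heifers. The first principal component held 43.3% of the variance of the 500 most variable genes. With this component as a term, 2 members (ZNF106 and ZNF326) had an unadjusted p under 0.05, against 3.68% of all tested genes, and with the log2 total count as a term 10 did, against 8.81%. With close pairs as blocks it was 0 members, against 1.81%, and 13 of 29 were higher in Holstein, against 49.4%, with log2 fold changes of 0.07 for ZNF106 and 0.01 for ZNF292. Without heifer 8 or heifer 21 the number was 4 (8.20% and 12.2% of all tested genes), and without heifer 2 it was 5 (11.3%). Without heifers 10 and 18 it was 7 (14.0%). Within the 4 close pairs of unlike breed, the number of members higher in the Holstein heifer was 4 (heifer 1 against 11), 14 (7 against 16), 16 (8 against 12) and 25 (10 against 18) of 29. Over all tested genes, 68.0% were lower in heifer 1 than in heifer 11, and 25.6% were lower in heifer 10 than in heifer 18.

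**Figure D4:**
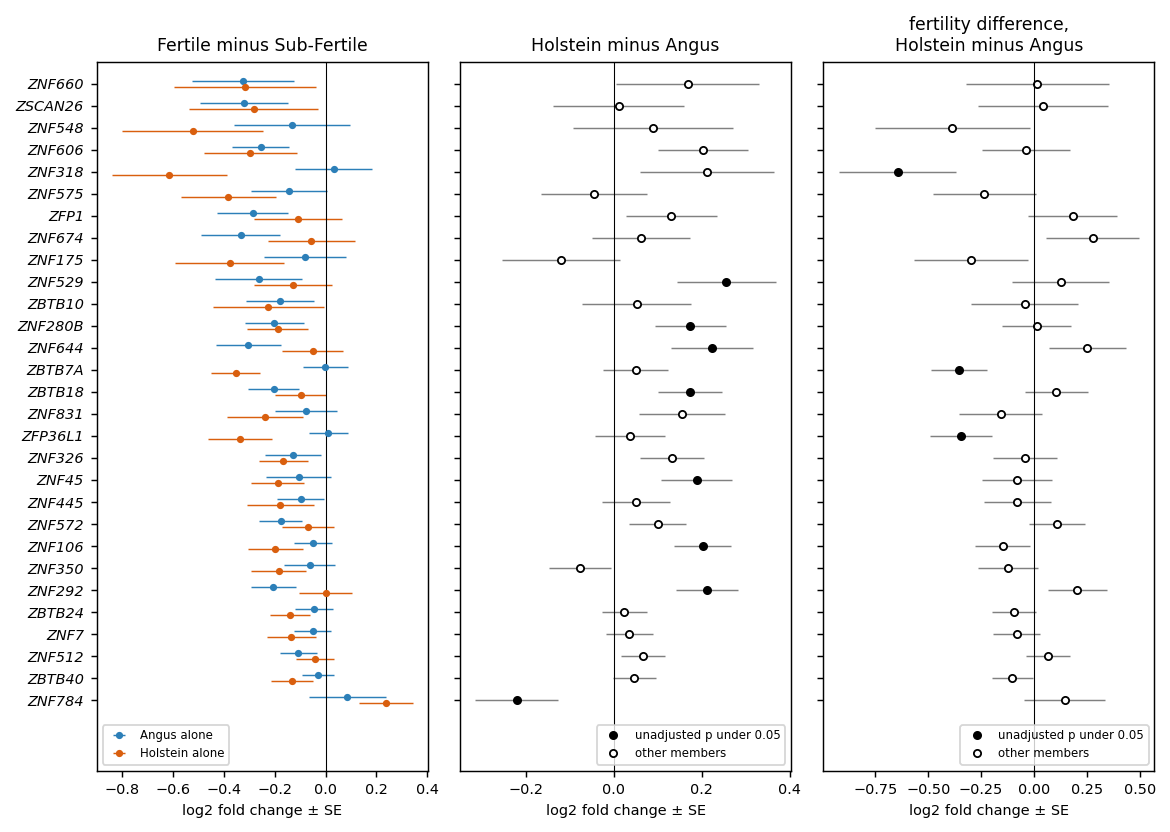
Log2 fold changes ± SE of the 29 members for fertility in each breed alone (left), for breed (middle) and for the difference of the fertility effect between breeds (right), ordered by log2 fold change for fertility. In the middle panel 25 of 29 members are above 0, and filled points mark the 8 members (breed) and 3 members (right panel) at an unadjusted p under 0.05, of which 0 passed after adjustment.

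Whether the fertility difference itself differed between the breeds was tested as an interaction. Of the 29 members, 3 had an unadjusted p under 0.05, or 10.3%, against 10.5% of all tested genes, and 0 passed after adjustment (lowest adjusted p 0.447 by edgeR). The share of members was thus near the background. In all 3, ZBTB7A, ZFP36L1 and ZNF318, the difference was more negative in Holstein than in Angus, against 4.99% of all tested genes. Heifers 2 and 3 had the highest values of the Holstein Sub-Fertile heifers in all 3. ZBTB7A and ZNF318 also varied together about the group means (r = 0.83). Nothing is therefore read from the shared direction.

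ZBTB7A measured 216, 306, 289, 279 and 261 CPM in Angus Fertile heifers 18 to 22, and 234 to 292 (median 269) in Angus Sub-Fertile heifers. In Holstein Fertile heifers 6 to 10 it measured 260, 228, 263, 243 and 231, and in Holstein Sub-Fertile heifers 1 to 5 it measured 292, 360, 350, 312 and 250. In Holstein only heifer 5 of the Sub-Fertile group lay inside the Fertile range, whereas the Angus groups covered each other. The log2 fold change of ZBTB7A for fertility was -0.0014 ± 0.0879 (SE) in Angus and -0.35 ± 0.10 in Holstein, and their difference was -0.35 ± 0.13 (unadjusted p 0.0142, adjusted p 0.447 by edgeR).

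ZNF318 measured 107, 212, 196, 192 and 140 CPM in Angus Fertile heifers 18 to 22, and 143 to 198 (median 164) in Angus Sub-Fertile heifers. Holstein Fertile heifers 6 to 10 gave 166, 152, 187, 152 and 112, and Holstein Sub-Fertile heifers 1 to 5 gave 162, 361, 290, 184 and 177. Heifers 2 and 3 stood far above the others, and the remaining Holstein Sub-Fertile heifers lay within the Fertile range. The difference between the breeds was -0.65 ± 0.28 for ZNF318 (adjusted p = 0.450 by edgeR) and -0.35 ± 0.14 for ZFP36L1 (adjusted p = 0.449). Without heifer 2, without heifer 3 or without heifer 20, 1 member had an unadjusted p under 0.05 for the interaction, against 7.11%, 7.82% and 9.72% of all tested genes. With close pairs as blocks the difference was 0.01 for ZBTB7A, -0.04 for ZNF318 and -0.06 for ZFP36L1, and the 1 member at an unadjusted p under 0.05 was ZNF292 (0.17), against 6.93% of all tested genes. In that fit 25 of 29 members were above 0, against 63.3% of all tested genes, where 12 of 29 were above 0 without the blocks.

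The members varied together across heifers beyond the groups. With group means taken out of log2 (CPM + 1), the median Pearson r over the 406 pairs of members was 0.45, and 91.9% of pairs were above 0. Over all pairs of tested genes the median was 0.05, and 55.9% were above 0. The points are 22 heifers that share close pairs, and the members were chosen on a contrast of the same libraries, so these values are a description. With the first principal component also taken out, the median r of the members was 0.45.

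Members on different chromosomes had a median r of 0.45 (362 pairs), and members on the same chromosome 0.34 (44 pairs). ZNF572 and ZBTB18, on chromosomes 14 and 16, had the highest r of any pair, 0.92. ZNF572 had the highest median r with the other members (0.65), followed by ZNF660 (0.64) and ZNF445 (0.61). ZNF784 had the lowest (0.07), then ZNF326 (0.15) and the RNA-binding ZFP36L1 (0.16). The lowest r of any pair of members was -0.45.

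Among the 5 pairs of neighbours, the r over 22 heifers was 0.73 for ZNF445 and ZNF660 (rho 0.71), 0.68 for ZNF175 and ZNF350 (rho 0.72), 0.54 for ZNF644 and ZNF326 (rho 0.51) and 0.53 for ZNF548 and ZNF606 (rho 0.59). For ZNF575 and ZNF45 it was 0.24 (rho 0.27). By a two-sided permutation test with 100000 resamples, the adjusted p of r over the 5 pairs was 0.00095, 0.00147, 0.0132, 0.0132 and 0.286 in that order, and that of rho 0.00117, 0.00117, 0.0210, 0.00658 and 0.220. Without the 2 heifers farthest from the median of the first gene, r was 0.64, 0.64, 0.49, 0.52 and 0.22. Thus 4 of 5 pairs passed. The resamples shuffled heifers across the groups and took no account of the group means already taken out, so p can be too small. The test compares r with 0, and members on different chromosomes had a median r of 0.45. Passing therefore does not set neighbours apart from other pairs of members. When the heifers of each close pair were averaged, which left 14 units and was chosen after seeing the data, 2 pairs passed, ZNF445 with ZNF660 (r = 0.77, permutation adjusted p 0.00625) and ZNF175 with ZNF350 (r = 0.66, 0.0263).

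**Figure D5:**
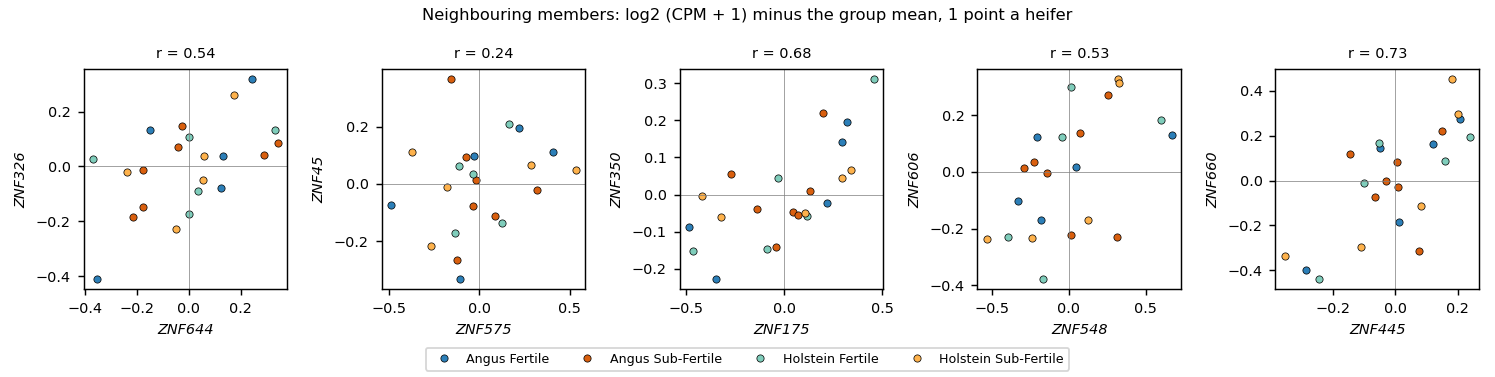
The 5 pairs of neighbouring members, with log2 (CPM + 1) minus the group mean of the first gene on the horizontal and of the second on the vertical axis, and 1 point for each of 22 heifers coloured by group. The r above each panel is 0.54, 0.24, 0.68, 0.53 and 0.73 from left to right.

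Set against all 406 pairs of members, the r of the 5 neighbour pairs lay above 90.9% (ZNF445 and ZNF660), 86.2% (ZNF175 and ZNF350), 66.5% (ZNF644 and ZNF326), 65.3% (ZNF548 and ZNF606) and 26.1% (ZNF575 and ZNF45) of them. In CPM, ZNF445 measured 19.1 to 27.2 in Angus Fertile, 22.8 to 28.2 in Angus Sub-Fertile, 19.9 to 28.2 in Holstein Fertile and 20.5 to 30.6 in Holstein Sub-Fertile heifers. ZNF660 measured 1.001 to 2.18, 1.55 to 2.70, 1.26 to 2.50 and 1.55 to 3.41 in the same order. Heifers 18, 10 and 1 were the lowest of their groups in both genes.

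ZNF175, known for repressing viral promoters in macrophages, measured 6.66 to 12.4 CPM in Angus Fertile, 8.65 to 12.4 in Angus Sub-Fertile, 5.72 to 11.7 in Holstein Fertile and 7.57 to 13.5 in Holstein Sub-Fertile heifers. ZNF350, a repressor that binds BRCA1, measured 12.6 to 17.2, 14.1 to 18.4, 12.1 to 17.1 and 14.8 to 16.2 in the same order. Both were lower in Holstein than in Angus, with log2 fold changes for breed of -0.12 ± 0.13 (SE) and -0.08 ± 0.07 that did not pass the test. Of the other members on chromosome 18, ZNF575 and ZNF784 were also lower in Holstein. The mean CPM in the same order of groups was 14.8, 15.9, 16.4 and 18.6 for ZNF45, and 12.6, 14.1, 11.3 and 14.4 for ZNF575. For ZNF548 it was 3.34, 3.77, 3.23 and 4.32, and for ZNF326 53.0, 58.0, 57.3 and 64.2. KRAB genes resemble each other in sequence, and the sources used here do not say how reads that match several copies were counted, so their values are less certain than those of the other members.

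Of 23 genes listed for transcriptional repression and heterochromatin, among them TRIM28 and SETDB1, 6 had a name here, all from rows with small p for fertility. For fertility, 5 of the 6 were below 0 (ATRX -0.14, ATF7IP -0.10, BCOR -0.17, BCL6 -0.24 and SIN3A -0.10 on the log2 scale), against 50.8% of all tested genes. UHRF1 was above 0 (0.37), and 0 had an unadjusted p under 0.05. These genes were selected on fertility, so nothing is read from their direction. For breed all 6 were higher in Holstein, against 46.5% of all tested genes. Of the 6, 1, ATRX, had an unadjusted p under 0.05 (0.21 ± 0.09, SE), against the 11.4% of all tested genes. With close pairs as blocks, ATRX (-0.03 ± 0.05) and BCOR (-0.0096) were below 0 for breed. ATF7IP (0.03), UHRF1 (0.04), BCL6 (0.02) and SIN3A (0.0048) stayed above 0. TRIM28 and SETDB1 were not among the named genes. Of 25 other zinc finger factors of blood cells, 8 had a name, also from rows with small p for fertility. For fertility 6 of these were below 0, against 50.8% of all tested genes. For breed, IKZF3 (0.26 ± 0.07), ZEB1 (0.20 ± 0.07) and KLF3 (0.12 ± 0.06), transcription factors of lymphocytes and other blood cells, had an unadjusted p under 0.05 and were higher in Holstein, as were 6 of the 8 in sign. The share of all tested genes called and higher in Holstein was 4.89%, and 0 passed after adjustment. The values were 0.04 ± 0.05, 0.07 ± 0.06 and 0.10 ± 0.05 with close pairs as blocks.

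White blood cells are a mixture, and in bulk RNA fewer cells of a type and less RNA per cell cannot be told apart. Neutrophil markers had a name for 4 of 16 genes, B cell markers for 1 of 11 (BANK1), platelet markers for 2 of 8, and eosinophil and basophil markers for 2 of 10. Markers of monocytes, T cells, natural killer cells and red blood cells had none, so these cell types were not checked. The summed CPM of the neutrophil markers ran from 393 to 515 in Angus Fertile, 355 to 710 in Angus Sub-Fertile, 249 to 505 in Holstein Fertile and 397 to 764 in Holstein Sub-Fertile heifers. The named markers all come from rows with small p for fertility, so their fertility differences were selected and nothing is read from them. For fertility, 3 of the 4 were lower in Fertile heifers, CSF3R (-0.42), MMP9 (-0.67) and TGM3 (-0.97), and QSOX1 was higher (0.18). Of all tested genes 50.8% were lower in Fertile heifers. BANK1 was higher in Holstein than in Angus (0.25 ± 0.10, SE, unadjusted p 0.0176 and adjusted p 0.395 by edgeR), and lower in Fertile heifers (-0.16). BANK1 had 0.03 ± 0.05 for breed with close pairs as blocks. Both platelet markers, ITGA2B (0.28) and GP9 (0.52), were higher in Fertile heifers, as was CCR3 of the eosinophil markers (0.32), while FCER1A was lower (-0.30). With close pairs as blocks, the values for fertility were -0.23 for CSF3R, 0.04 for MMP9, -0.54 for TGM3 and -0.0089 for QSOX1. They were 0.03 for BANK1, -0.00028 for ITGA2B, -0.02 for GP9, -0.04 for CCR3 and 0.08 for FCER1A. The part of cell composition in the values of the members was not tested.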

How the data were processed

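RNA of white blood cells was sequenced from polyadenylated RNA with a stranded kit, 1 library for each of 22 heifers. The authors aligned the reads to ARS-UCD1.2 with hisat2, used Samtools and biobambam2 to drop secondary alignments and duplicates, and ran featureCounts on the Ensembl annotation. Not given in the sources used here are the versions of these tools, the strand setting and the treatment of reads that align to several places. What the authors deposited is a raw count for each gene.

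Symbols, positions and transcript lengths came from the available rows of the study's table of its fertility test, whose fold changes and p-values were not used. The members, gene lists and tests were chosen with earlier results of these data known. Genes that exceeded a CPM of 1 in 5 heifers or more were fitted in edgeR 4.0.16 (R 4.3.3) by the robust quasi-likelihood test, with breed and fertility as terms, the interaction in a second model, and sums of counts as library sizes. Close pairs are heifers each nearest to the other, with a biological coefficient of variation under 0.5 of the median pairing over genes with a mean CPM above 20. Permutation tests used scipy 1.17.1. DESeq2 1.42.0, TMM factors, other filters, further terms, blocks, each breed alone and each heifer left out were alternatives. The model was tested on simulated data. All members are named. Values by heifer or group are given for those at an unadjusted p under 0.05 for fertility, the member of opposite sign, the 3 of smallest p for breed and for the interaction, members of neighbour pairs, and the highest and lowest per kilobase.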

Additional observations from a re-analysis of the deposited data

Results flagged for a closer look

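Dixon's test of the highest and lowest heifer of each group, over 29 members and 4 groups (116 tests), set 5 heifers apart, and chance sets about 1 in 20 apart. Holstein Fertile heifer 6 had the highest ZBTB40 of its group at 62.6 CPM, next to 56.6. Holstein Sub-Fertile heifer 1 had the lowest ZFP1 of its group at 2.45 CPM, next to 4.27. ZNF292 was lowest in Holstein Fertile heifer 10 at 82.2 CPM, next to 102, and ZNF7 in Angus Fertile heifer 18 at 19.1 CPM, next to 22.3. These heifers are a close pair. ZNF674, a KRAB gene on the X chromosome, was lowest in Angus Fertile heifer 21 at 1.97 CPM, next to 3.67.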

How the results depend on the processing

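The number of members lower in Fertile heifers was 28 of 29 under TMM factors, no filter, DESeq2, the older edgeR method, terms for log2 total count or the first principal component, without heifers 10 and 18, and with each heifer left out (28 to 28). It was 24 of 25 tested with a CPM above 5, and 12 of 29 with close pairs as blocks. Because the rule used this contrast in the same libraries, the unchanged counts are no support for the direction. Members at an unadjusted p under 0.05 for breed (8) numbered 2 with the first principal component as a term, 0 with close pairs as blocks and 4 to 10 with a heifer left out. For the interaction (3) they numbered 1 with blocks and 1 to 3 with a heifer left out. Members passing after adjustment were 0 for breed and 0 for the interaction under every alternative run. With blocks, 14 of 29 members changed sign for breed and 15 for the interaction, among them ZNF644 (-0.022) and ZNF280B (-0.015) for breed and ZBTB7A (0.0067) for the interaction. Neighbour pairs that passed numbered 4 under TMM factors, with the first principal component taken out and without heifers 10 and 18, and 2 with close pairs averaged. The causes of these changes were not tested, apart from the fewer genes under the stricter filter and the fewer units when pairs are averaged.

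The count of all measured zinc finger genes lower in Fertile heifers was not run, since symbols were at hand only for the rows of smallest p. The replicate numbers of the labels are numbers of heifers and pair none of them. The close pairs come from the data. Depth limits ZNF660, ZNF674, ZFP1, ZNF548 and ZNF529, whose lowest counts were 16, 24, 38, 33 and 39. Nothing in the labels says whether the 22 libraries were handled separately. The p-values over heifers assume independent libraries. If the heifers of close pairs are not independent, these p-values can be too small or too large. Pairs within a group tend to make them too small, and pairs across the compared groups too large.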
